A study of Mus musculus with 2 samples.

Results

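The genes described here are 10 intermediate filament genes of nerve cells, glia and their precursors: Nefl, Nefm, Nefh, Ina, Prph, Nes, Vim, Gfap, Des and Synm. They were taken by symbol from a list, with no measured value in the rule. The list itself was chosen with earlier results of these data known. Each gene was found once among the 43346 Ensembl genes of both gene tables. RNA came from the hindbrain of untreated mouse embryos of strain B6NCrl at embryonic day 12.5, with no engineered allele named in the labels. Replicate 1 pooled 120 embryos and replicate 2 pooled 88 embryos, males and females together, so each value is an average over many animals and over every cell type that was dissected. There is 1 group of 2 libraries, and each p-value below therefore compares 2 libraries and no conditions. The libraries held 31633169 and 29766460 expected counts, which are estimated fragments per gene. Levels were read for 7 transcription factor genes listed for hindbrain (Hoxa2, Hoxb2, Hoxa3, Hoxb3, Meis1, Meis2 and Irx2). Genes of neighbouring regions were not set against them, so their levels cannot tell hindbrain from its neighbours. All 7 listed genes reached 1 TPM (a level corrected for transcript length and library size) in both libraries. Their median was 47.5 TPM in replicate 1 and 58.6 TPM in replicate 2.

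Intermediate filaments are ropes of coiled-coil proteins that give cells mechanical strength, and their composition changes as neural cells mature. Neuroepithelial and radial glial precursors build filaments from vimentin and nestin. New neurons replace these with alpha-internexin and with the light and medium neurofilament subunits, while the heavy subunit is added as axons mature and widen. Peripherin is typical of neurons that send axons out of the central nervous system, desmin of muscle, glial fibrillary acidic protein of astrocytes, and synemin of several cell types in which it joins filaments of other subunits.

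Sequences are shown first for the sites and promoters on which later values turn. The first pair crosses splice sites that noncoding transcripts of Nes and Vim read through, and the capitals mark intron bases while lower case marks coding exon bases. The Nes stretch lies on the plus strand at chr3:87973087-87973146 of mm10, where the transcript Nes-202 runs 275 nt past the end of exon 2 into an intron of 1685 nt. The Vim stretch lies on the plus strand at chr2:13579391-13579450, where Vim-203 begins 52 nt before exon 5 in an intron of 670 nt.
Nes exon 2 into intron: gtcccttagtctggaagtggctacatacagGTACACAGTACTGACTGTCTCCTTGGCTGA
Vim intron into exon 5: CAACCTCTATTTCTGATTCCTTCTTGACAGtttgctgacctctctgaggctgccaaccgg

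The next set holds the 100 bases before the RefSeq start (GRCm38.p6) of 4 genes that span the range of levels: Ina near the top, Prph and Des with the largest gaps between libraries among the tested genes, and Gfap at the bottom. Capitals mark the motifs TATAAA or CCAAT on either strand. The windows are chr19:47014581-47014680 (plus strand) for Ina, chr15:99055074-99055173 (plus) for Prph, chr1:75360192-75360291 (plus) for Des and chr11:102897201-102897300 (minus) for Gfap.
Ina: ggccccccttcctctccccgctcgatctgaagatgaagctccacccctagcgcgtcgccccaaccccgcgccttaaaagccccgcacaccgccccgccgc
Prph: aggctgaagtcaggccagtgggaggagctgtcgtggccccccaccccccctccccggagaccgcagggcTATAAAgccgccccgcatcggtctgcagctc
Des: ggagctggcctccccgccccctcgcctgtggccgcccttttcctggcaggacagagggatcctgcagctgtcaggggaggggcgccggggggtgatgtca
Gfap: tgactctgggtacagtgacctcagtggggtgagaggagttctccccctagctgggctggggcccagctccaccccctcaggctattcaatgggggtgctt

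Promoters of 7 of the 10 genes were matched, the others being those of Nefl, Nefm and Nefh. TATAAA was in the windows of Prph and Vim, 31 and 32 bases before the start, so in 2 of 7 windows against 5.56% of 32851 windows of the same length. CCAAT was in 2 of 7 (Vim and Synm) against 18.9%. The windows of Vim and Synm lie wholly within exons annotated in GENCODE M21. CANNTG, the E-box letters, was in 1 of 7 (Des) against 34.4%. G and C made up 60% (Vim) to 73% (Synm) of the bases. The motifs were searched on both strands, CCAAT and CANNTG can share letters, and a match describes letters only.

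The 10 genes spanned 4 orders of magnitude, from vimentin as one of the most abundant messages of the tissue to Gfap at the limit of detection. In all, 9 of 10 reached 1 TPM in both libraries, and 5 of 10 reached 100 TPM in both. Together they held 0.212% of all TPM in replicate 1 and 0.220% in replicate 2. By mean level the order was Vim, Ina, Nefl, Nefm, Nes, Prph, Des, Synm, Nefh and Gfap. Neighbours in this order had values that did not overlap between libraries, except Des and Synm. With 2 libraries a lack of overlap is a weak criterion, and the size of the lead of Vim depends on a noncoding transcript described below.

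**Figure D1:**
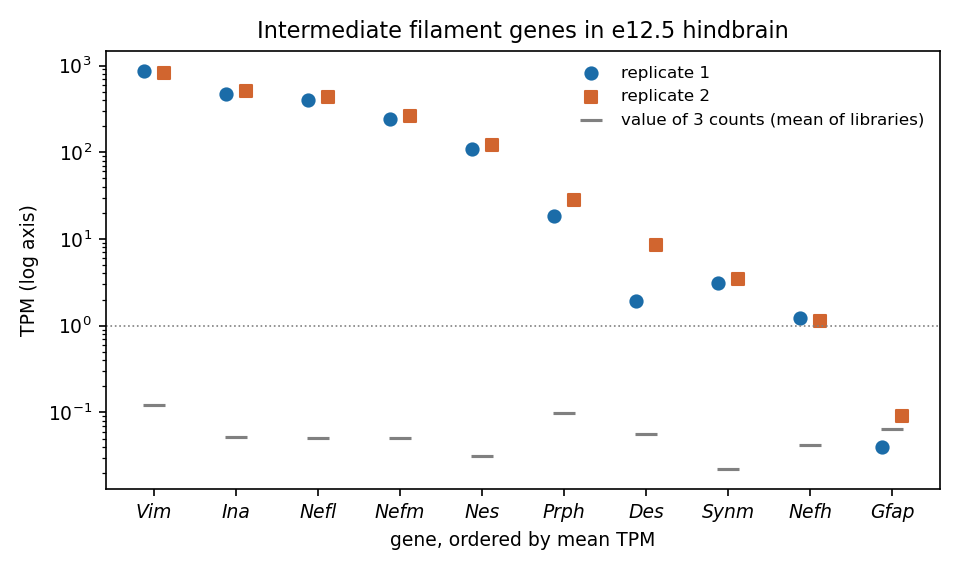
TPM (log axis) of each gene in replicate 1 (circles) and replicate 2 (squares), ordered by mean TPM. The dotted line is 1 TPM and the grey dashes are the level of 3 counts at each gene's length; Gfap alone lies at that level, and Des has the widest gap, 1.91 against 8.45 TPM.

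The neurofilament subunits of young axons were abundant, and the heavy subunit was nearly absent. Ina, which encodes alpha-internexin (chromosome 19, 47014698 to 47025327, plus strand), had 470.3 TPM in replicate 1 and 509.2 in replicate 2. Nefl, the light subunit with which the other neurofilament proteins assemble (chromosome 14, 68083863 to 68089095, plus strand), was at 401.1 and 438.3 TPM. These levels placed Ina at rank 241 and 206, and Nefl at rank 317 and 260, of the Ensembl genes of each library. Nefm, the medium subunit (chromosome 14, 68082590 to 68124846, minus strand), was at 242.9 and 260.1 TPM. Nefh, the heavy subunit (chromosome 11, 4938754 to 4948064, minus strand), was at 1.23 and 1.14 TPM, from 91 and 78 counts. The level of 3 counts at its length was 0.0406 and 0.0440 TPM, so Nefh was above it in both libraries.

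The proportions of the subunits were close between the pools. Within a library, Ina was 1.17 times Nefl in replicate 1 and 1.16 times in replicate 2. Nefm was 0.606 and 0.593 times Nefl. In log2, the sum of Ina, Nefm and Nefh over Nefl was 0.83 and 0.81, a mean of 0.82 ± 0.01 (SD, n = 2). Nefl exceeded Nefh 326-fold and 384-fold, and that ratio rests on the small counts of Nefh.

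Nefl and Nefm are neighbours on opposite strands. The long transcript Nefm-202 runs across Nefl, and the GENCODE M21 exons of the genes share 1108 bases. No label or file read here states whether strand was kept, so reads of the shared bases cannot be told apart. The deposited tables gave Nefm-202 only 1.43% of Nefm in replicate 1 and 1.24% in replicate 2, and the compact Nefm-201 the other 98.6% and 98.8%. The exons of Ina overlap those of the opposite-strand gene Nt5c2 by 456 bases, where Nt5c2 was at 54.7 and 56.8 TPM.

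Prph, which encodes peripherin (chromosome 15, 99055174 to 99058978, plus strand), was far lower than the other abundant neuronal subunits and varied more. It had 18.5 TPM in replicate 1 and 28.0 in replicate 2, from 591 and 823 counts, so Nefl was 21.7 and 15.7 times as high. Prph-201 held 83.5% and 89.2% of the level and Prph-202 the other 16.5% and 10.8%. Estimated counts of Prph-202 were 102 and 93.2, with deposited posterior SDs of 24.5 and 27.3 counts, so its 2 values differed by less than the uncertainty of assigning reads. The estimate of Prph-201 went from 489 to 730 counts with the same SDs. Most of the gap between the pools thus lay in Prph-201.

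Nes and Vim, the filaments of dividing precursors, were both abundant, and their levels depended on how short noncoding transcripts were counted. Vim (chromosome 2, 13573927 to 13582826, plus strand) had 872 TPM in replicate 1 and 826 in replicate 2, at rank 99 and 95 of the genes. Nes (chromosome 3, 87971078 to 87980451, plus strand) was at 108.5 and 121.2 TPM. Vim was thus 8.04 and 6.82 times Nes. In these bulk samples, more cells of a type and more RNA per cell cannot be told apart.

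The transcript of Vim with the largest share of TPM was Vim-203, of the retained-intron type, which is not expected to yield protein. It held 36.3% and 36.5% of Vim TPM. Of its 535 nt, 483 lie in exons of coding Vim transcripts, and the other 52 nt are intron at its start, of which the last 30 are shown above. Because it is short, 11.8% of the Vim counts in each library gave it that share of TPM. The coding transcripts Vim-206 and Vim-201 held 33.6% and 29.4% in replicate 1, and 33.3% and 29.4% in replicate 2.

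Counting only protein-coding transcripts, Vim was at 549 and 518 TPM instead of 872 and 826. Ina and Nefl each have 1 annotated transcript and kept their values. Vim was then 1.17 times Ina in replicate 1 and 1.02 times in replicate 2, against 1.85 and 1.62 times with all transcripts. The lead of vimentin over alpha-internexin at the coding level was therefore not resolved, with a log2 difference of 0.12 ± 0.14 (SD, n = 2). Coding Vim leaves out all counts of Vim-203, although 483 of its 535 nt lie in coding exons. Fragments of coding Vim assigned to Vim-203 would make coding Vim too low, which was not tested. Over Nefl, coding Vim stayed ahead in both libraries, by 1.37 and 1.18 times.

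**Figure D2:**
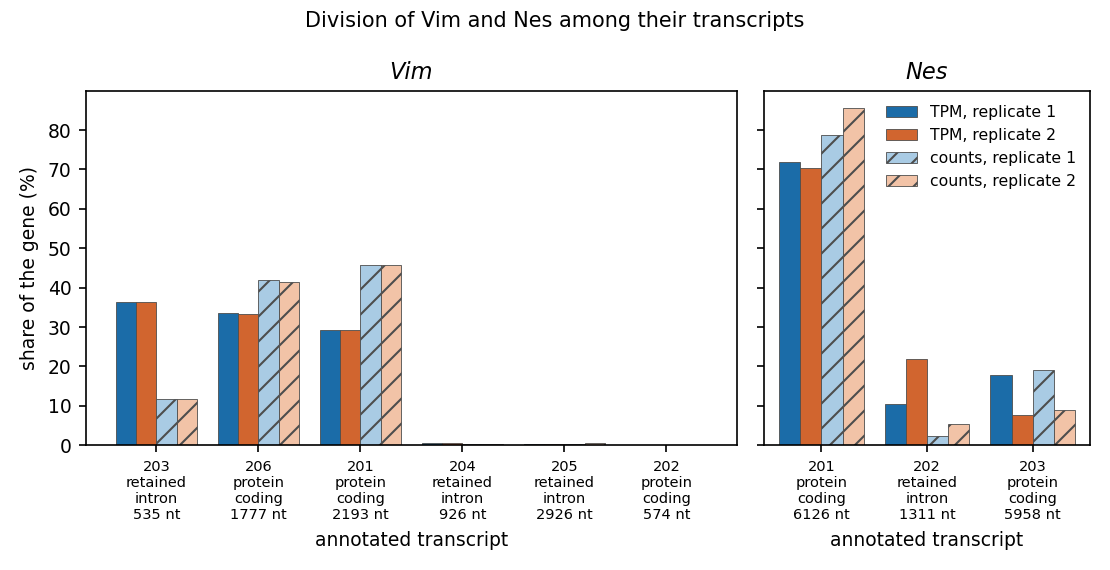
Share (%) of Vim (left) and Nes (right) in each annotated transcript, as a share of TPM (solid bars) and of expected counts (hatched bars) in replicates 1 and 2, with the transcript's type and length below. Vim-203 takes about 36% of TPM from 11.8% of counts, and Nes-202 takes 10.4% of TPM in replicate 1 and 21.9% in replicate 2.

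Nes showed a gap between the pools in TPM that was not in its counts. Its TPM was higher in replicate 2, 121.2 against 108.5, whereas its counts were 11311 and 10520, a ratio of 0.998 after scaling for library size (95% interval 0.971 to 1.02). The retained-intron transcript Nes-202 (1311 nt), whose boundary is printed above, went from 11.3 to 26.6 TPM. Its estimated counts were 259 and 563, with posterior SDs of 41.6 and 44.3, so that gap exceeded the assignment uncertainty. Coding Nes had 97.2 TPM in replicate 1 and 94.7 in replicate 2, in the opposite order to the gene level. Of the coding transcripts, Nes-201 was at 77.8 and 85.4 TPM and Nes-203 at 19.4 and 9.27 TPM. The counts of Nes-203, 2152 and 950, carried posterior SDs of 470 and 393, so the division between these similar transcripts was loose.

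**Figure D3:**
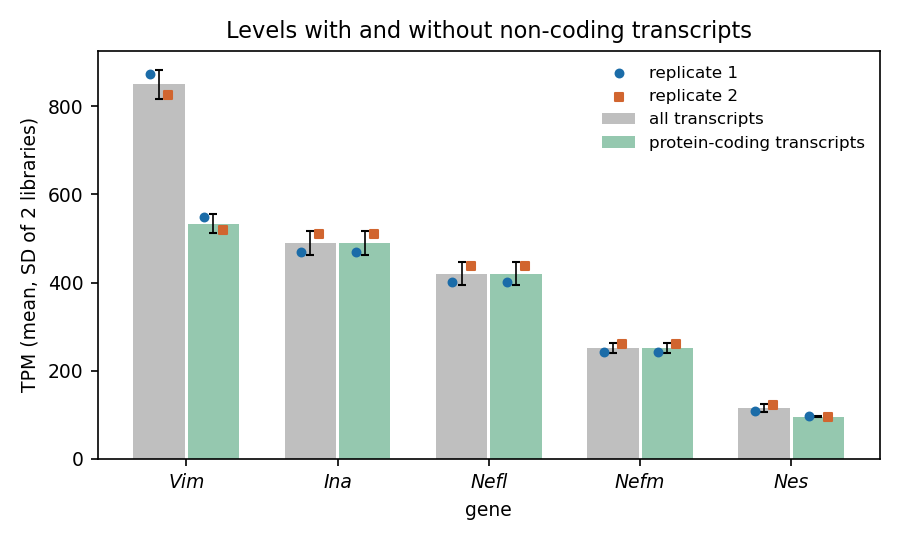
TPM of 5 abundant genes with all transcripts (grey bars) and with protein-coding transcripts only (green bars). Bars are means of 2 libraries, error bars are SD, circles are replicate 1 and squares replicate 2; Vim goes from 849 to 534 TPM and then lies close to Ina, at 490 TPM.

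The balance of neuronal over precursor filaments depended on the same choice. The summed TPM of Nefl, Nefm, Nefh, Ina and Prph was 1.16 times that of Nes and Vim in replicate 1 and 1.31 times in replicate 2, a log2 ratio of 0.30 ± 0.12 (SD, n = 2). With protein-coding transcripts only it was 1.75 and 2.02 times, a log2 ratio of 0.91 ± 0.14. That ratio leaves out Vim-203 and Nes-202, most of whose bases lie in coding exons, so it may be too high. Against Nes alone, which fewer tissues express than Vim, the neuronal sum was 10.5 and 10.2 times as high. Neuronal filament messages were the more abundant side in both libraries with all transcripts. The other counts are no check of this, because they could only raise the ratio. Counting coding transcripts lowers almost only Nes and Vim, and counting Nes alone drops Vim.

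Gfap, the astrocyte filament gene (chromosome 11, 102887336 to 102900912, minus strand), was at the edge of detection. It had 2 counts in replicate 1 and 4 counts in replicate 2, or 0.04 and 0.09 TPM. The level of 3 counts at its length was 0.0626 and 0.0673 TPM, so replicate 1 lay below that limit and replicate 2 just above it. The ratio of counts between libraries, 2.15, had a 95% interval of 0.307 to 23.7, and Gfap was left out of the tests for too few counts. Other genes known from astrocytes were not at that limit. All 6 of a list (Gja1, Aldoc, Slc1a2, Aldh1l1, Aqp4 and S100b) reached 1 TPM in both libraries, with medians of 14.1 and 12.04 TPM. The lowest of them, S100b, was at 1.33 and 1.11 TPM. Radial glia also express several of these genes.

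Synm, which encodes synemin (chromosome 7, 67730160 to 67759742, minus strand), was low in both pools. It was at 3.09 and 3.43 TPM, from 430 and 446 counts. Its transcripts were used about evenly: Synm-202 held 52.3% and 62.0% and Synm-201 the other 47.7% and 38.0%. The counts of Synm-201 were 192 and 157 with posterior SDs of 35.7 and 32.4, so the shares were not resolved between libraries. Vim, with which synemin can assemble, was 282 and 241 times as high. The opposite-strand gene Ttc23 shares 84 exon bases with Synm and was at 25.4 and 26.8 TPM.

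Des, the muscle filament gene (chromosome 1, 75360329 to 75368579, plus strand), was the most divergent tested member. It had 1.91 TPM in replicate 1 and 8.45 in replicate 2, from 106 and 433 counts, all assigned to the coding transcript Des-201. Scaled counts were 4.38 times as high in replicate 2 (95% interval 3.54 to 5.47). Its adjusted p was 9.08e-51 by the two-sided exact binomial test and 6.01e-16 by the edgeR exact test.

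Between the 2 libraries, 6 of the 9 tested genes were called by the exact binomial test, which allows for counting error only, against 20.4% of all 19209 genes tested. Of these, 5 were higher in replicate 2 (Nefl, Nefm, Ina, Prph and Des) and 1 was lower (Vim), where 10.7% and 9.68% of all genes were called in these directions. The 5 most abundant genes had 10520 to 28022 counts each in a library, and 4 of them were called at ratios of 0.936 to 1.08. With the spread between libraries added to the error, the edgeR exact test called 1 of 9, Des, against 1.57% of all genes. The median log2 ratio of the 9 was 0.10, beside -0.002 over all genes tested. These ratios are relative to the bulk of genes. Scaling by the ERCC spike-ins instead moves every log2 ratio by -0.37, which puts Nefl, Nefm, Ina and Synm lower in replicate 2 and leaves Prph (0.21) and Des (1.76) higher.

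The sizes of these gaps were small for the abundant genes. Scaled counts of Nefl, Nefm and Ina were 1.08, 1.06 and 1.07 times as high in replicate 2, with 95% counting intervals of 1.06 to 1.10, 1.04 to 1.08 and 1.05 to 1.09. Vim was 0.936 times as high (0.918 to 0.954), with an adjusted p of 5.27e-10 by the binomial test and 1.00 by the edgeR exact test. Prph was 1.49 times as high (1.34 to 1.66), and its adjusted p of 4.26e-12 became 0.158 in the edgeR exact test. Nes, Synm and Nefh were not called by either test, and their intervals of 0.971 to 1.02, 0.972 to 1.27 and 0.671 to 1.26 bound the gap that counting error allows. The edgeR dispersion, a coefficient of variation of 9.02%, was itself estimated from these libraries and shared by all genes. The SD over genes of the log2 TPM ratio between libraries, counting error included, was 0.136 at 100 TPM or more. It was 0.325 at 5 to 20 TPM and 0.642 at 1 to 5 TPM.

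**Figure D4:**
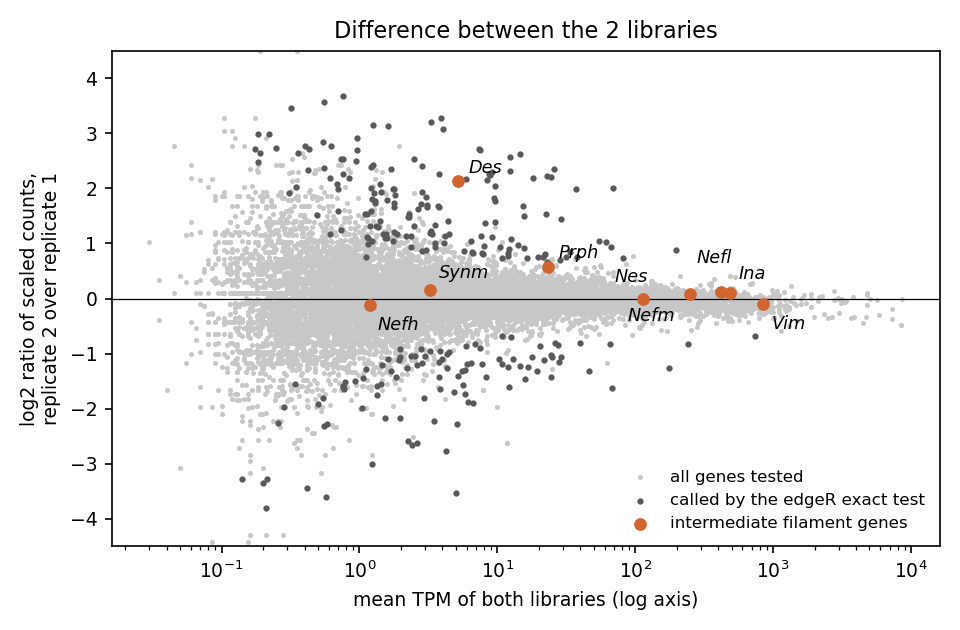
Log2 ratio of scaled counts (replicate 2 over replicate 1) against mean TPM (log axis) for all genes tested (light grey), those called by the edgeR exact test (dark grey) and the 9 tested filament genes (orange). Des lies far above the others at 2.13 and Prph at 0.58, while the rest lie between -0.12 and 0.15, and all below 0 under ERCC scaling; 43 genes fall beyond the vertical limits of 4.5.

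Markers of the cell types that use these filaments were also compared between the pools. The counts for each list stand beside the 10.7% of all genes called higher and 9.68% called lower by the binomial test, and 1.57% called by the edgeR exact test. These shares include genes with as few as 10 counts. The binomial test calls smaller ratios in genes with more counts, and many listed genes are abundant. A share above that of all genes can therefore reflect their depth. Under ERCC scaling, skeletal muscle is the only list below whose median log2 ratio stays above 0. All 9 listed skeletal muscle genes were higher in replicate 2 by both tests, with a median log2 ratio of 2.22, beside 2.13 for Des. Their summed TPM was 62.8 in replicate 1 and 296 in replicate 2, and the myogenic factor gene Myog was at 6.38 and 29.6 TPM. No marker of the list, which was chosen with earlier results of these data known, was at 0 in either library. Smooth muscle and pericyte genes, whose cells also make desmin, had 4 of 8 called higher by the binomial test and 1, the actin gene Acta2, by the edgeR exact test (40.5 and 83.3 TPM), and summed to 113 and 163 TPM. The part of either tissue in the gap of Des was not tested.

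Of 8 motor neuron and ganglion genes, 6 were called higher and 1 lower in replicate 2 by the binomial test, and none by the edgeR exact test, where Chat had the smallest adjusted p, 0.134. Their summed TPM was 156 and 175, and Chat, the acetylcholine-synthesising enzyme of motor neurons, was lowest at 0.47 and 1.08 TPM. Their median log2 ratio was 0.31, and that of Prph was 0.58. The 7 hindbrain genes named at the start also had a median of 0.31. Of these, 6 were called higher and 1 lower by the binomial test, and none by the edgeR exact test. The most abundant of the 8 motor neuron and ganglion genes, Pou4f1, a factor gene of sensory neurons among others, was at 43.0 and 54.1 TPM. The 1 called lower was Isl2, at 16.3 and 13.5 TPM. Isl1, at 37.15 and 35.68 TPM, was not called. Schwann and crest glia genes were mixed, with 1 of 5 called higher and 2 lower. Sox10, their defining factor gene, was at 15.4 and 9.60 TPM and was also called lower by the edgeR exact test (adjusted p = 0.0455). That call lies close to the threshold of 0.05. How far these cells account for the gap of Prph was not tested.

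Of 8 general neuron genes, 5 were called higher and 2 lower by the binomial test, with a median log2 ratio of 0.13, beside 0.08 to 0.11 for Nefm, Ina and Nefl. Of 7 radial glia genes, 4 (Fabp7, Hes5, Slc1a3 and Notch1) were called lower and none higher, with a median of -0.20, beside -0.10 for Vim and -0.003 for Nes. Mesenchyme and meninges also express vimentin, and 7 of their 8 genes were called higher, with a median of 0.27. The leading genes of these lists were Tubb3 (856 and 843 TPM), the tubulin of young neurons, Fabp7 (1304 and 1151), a fatty acid binding protein of radial glia, and the collagen gene Col3a1 (448 and 603). Summed TPM was 1903 and 1700 for the radial glia list and 1407 and 1823 for the mesenchyme list. In none of these 3 lists was a gene called by the edgeR exact test. The share of Vim RNA that came from each cell type was not tested. Endothelial genes, another vimentin-rich type, had 1 of 6 called higher by the binomial test, beside 10.7% of all genes, and none by the edgeR exact test. They summed to 114 and 123 TPM.

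**Figure D5:**
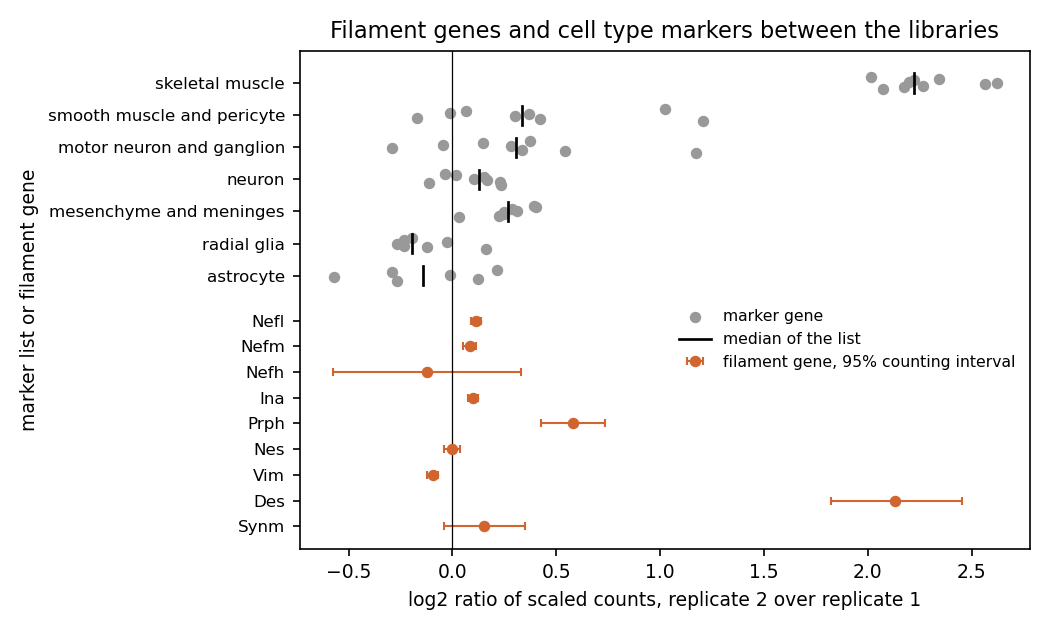
Log2 ratio of scaled counts (replicate 2 over replicate 1) of marker genes by list (grey points, black bar at the median) and of the 9 tested filament genes (orange, with 95% counting intervals). Des, at 2.13, lies among the skeletal muscle markers, which run from 2.02 to 2.62, and Prph lies at 0.58.

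Genes whose products act on these filaments ranged from above Vim to below Nefh in TPM. Kinases that phosphorylate filament heads or tails, listed with the activators Cdk5r1 and Cdk5r2, had medians of 55.6 and 57.6 TPM, with 14 of 14 at 1 TPM in both libraries. Among them Cdk1, the mitotic kinase that acts on vimentin and nestin, was highest (178 and 169 TPM), and Gsk3b (113 and 117) and Aurkb (82.0 and 77.2) were also abundant. Cdk5, a kinase of neurofilament tails, was at 34.2 and 35.7 TPM and its neuronal activator Cdk5r1 at 61.9 and 62.2. The binomial test called 1 of the 14 higher and 3 lower in replicate 2, beside 10.7% and 9.68% of all genes, and the edgeR exact test called none of them.

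The 9 transport genes, whose motors move neurofilaments along axons, had medians of 80.2 and 67.5 TPM, led by the kinesin light chain gene Klc1 (351 and 361), Kif5c (124 and 127), Kif5b (119 and 119) and Kif1b (112 and 111). By the binomial test, 3 of these 9 were called higher and 1 lower, beside 10.7% and 9.68% of all genes, and none by the edgeR exact test. Linkers that tie filaments to other structures were lower, at medians of 10.3 and 9.30 TPM, led by Macf1 (62.7 and 58.1), Dst (35.98 and 31.5) and Plec (19.1 and 17.4), with Dsp, the desmosomal linker, at 1.25 and 1.15. By the binomial test, none of the 6 matched linkers was called higher and 2 were called lower, beside 9.68% of all genes called lower, and none was called by the edgeR exact test. Eppk1 was not matched. Of the turnover genes, the ubiquitin ligase gene Trim2 was at 96.7 and 98.1 TPM and the polyubiquitin gene Ubb at 2962 and 2989. No turnover gene was called by either test.

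Small heat shock proteins bind filaments, desmin among them. Of 5 chaperone genes, 3 were called higher and 1 lower in replicate 2 by the binomial test, beside 10.7% and 9.68% of all genes, and none by the edgeR exact test. Cryab was at 6.75 and 11.7 TPM and Hspb1 at 19.5 and 27.7 TPM, both called higher, while Hspa8 (2113 and 2112) and Dnajb6 (184 and 217) were the most abundant. Neither Cryab nor Hspb1 passed the edgeR exact test, with adjusted p of 0.0708 and 0.513.

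Among other intermediate filament genes, the nuclear lamins were high and keratins low. All 3 lamin genes exceeded 10 TPM: Lmnb1 was at 138 and 144 TPM, Lmnb2 at 46.3 and 46.8, and Lmna, typical of stiffer tissues, at 41.0 and 50.2. Of 50 keratin genes, 10 reached 1 TPM in both libraries and 19 had no count in either. Their summed TPM, 111 and 98.2, was below that of Nefm alone. Krt18 (25.2 and 16.5 TPM), Krt8 (25.1 and 16.0), Krt5 (11.6 and 13.4), Krt15 (11.3 ± 3.85, SD, n = 2) and Krt10 (9.17 and 10.9) had a mean of 10 TPM or more. The lens filament genes Bfsp1 and Bfsp2 were at 1.76 to 1.91 TPM.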

How the data were processed

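Total RNA longer than 200 nt, with 10 ng as starting material, was sequenced with ERCC spike-ins in 2 libraries of pooled e12.5 hindbrain, per the labels' protocols. The authors deposited expected counts, TPM, posterior mean TPM and, per transcript, the percent of the gene's TPM and the posterior SD of the count, on mm10 with GENCODE M4, per the accompanying notes. Which aligner and quantifier were used was not given in the sources used here. Symbols, transcript types and positions were read from GENCODE M21, which uses that assembly, with 42462 of 43346 Ensembl genes matched. Of 110 listed genes, 109 were matched.

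The 10 genes and all 15 lists were chosen with earlier results of these data known. All 10 genes were named, and of each list up to 4 genes of highest TPM, some of which are not reported here. Other list genes (Cdk5, Cdk5r1, Dsp, Chat, Isl2, S100b, Aqp4, Notch1) were named after their values were seen. So were Nt5c2 and Ttc23, which overlap a gene described.

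Expected counts were rounded, and genes with 10 or more counts over both libraries were scaled by TMM (edgeR 4.0.16, R 4.3.3). The libraries were compared gene by gene with an exact binomial test, two-sided (scipy 1.17.1), and p-values were adjusted by Benjamini-Hochberg over every tested gene, at a threshold of 0.05. An edgeR exact test with a common dispersion was the alternative, and DESeq2 1.42.0 size factors and ERCC totals were other scalings. The scripts were tested on simulated data. Counting intervals (exact Clopper-Pearson) cover counting error only and treat each fragment as an independent draw. Amplified fragments are not independent molecules, so these intervals can be too narrow. ERCC spike-ins took 3.41% and 4.36% of counts, and entries that name no gene 0.000107% and 0.000114%; both stayed out of the tests.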

Additional observations from a re-analysis of the deposited data

How the results depend on the processing

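No paired analysis was possible because there is 1 group of 2 libraries. The number of filament genes called between libraries was 6 with TMM, with DESeq2 size factors and without a filter on low counts. It was 9 with ERCC scaling and 1 with the edgeR exact test. The share of all genes called was 20.4% with TMM and 1.57% with the edgeR exact test, and is not given for the other settings. The 9 called with ERCC scaling are therefore no result about these genes. ERCC scaling moved the median log2 ratio of all genes by -0.37. With it, the sign turned for Nefl (-0.26), Nefm (-0.29), Ina (-0.27) and Synm (-0.21), all of which lay above that shift, and Nefh, Nes and Synm newly passed the threshold. The log2 ratio of neuronal over precursor filaments was 3.37 against Nes alone and 0.91 with protein-coding transcripts only, an alternative chosen after seeing the data; the summands differ by construction. From posterior mean TPM, the share of the leading transcript was 69.97% for Nes and 90.1% for Des, and Gfap was at a mean of 0.315 TPM. In that measure Gfap-203, with 0 expected counts in both libraries, held 71.1% of Gfap in replicate 1 and 62.2% in replicate 2. Des-202, also with 0 expected counts, held 9.23% and 5.44% of Des. The cause of the shifts was not tested. The deposited TPM totals include the spike-ins. Without them, mean TPM moved by more than its SD for 7 of the 10 genes, for example to 464.8 for Nefl and 939.7 for Vim. With 2 libraries, leaving out either one gives the other's value, so it is no check of stability, and 9 genes reached 1 TPM in each library alone. With a threshold of 5 TPM, 6 did in both. Depth limits Gfap and Nefh most.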
